A study of Mus musculus with 5 samples.

Results

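Genes for the subunits of voltage-gated calcium and sodium channels, pacemaker channels and potassium channels were measured in mouse embryonic hearts taken at E10.5. All genes with an annotated symbol beginning with Cacna1, Cacna2d, Cacnb, Cacng, Kcn, Hcn and a digit, or Scn, digits and a or b were taken, apart from the antisense RNA Kcnq1ot1. This gave 132 of the 23279 named genes on the array. The symbols also took in 4 genes of no subunit family, Kcnrg and the antisense transcripts Kcnd3os, Kcnmb4os1 and Kcnmb4os2. Genes whose probe set carries no symbol in the platform annotation were not analysed here. The hearts came from 2 embryos or pools whose genotype is labelled KO and 3 labelled Control. All were untreated, and the title of the series names LRRFIP2 and the response to hypoxia during heart formation. The labels give no strain, allele, deleted exon or Cre driver, do not give the genotype of the controls beyond that word, or the number of hearts in a sample. The p-values therefore measure only the spread between these 5 samples, which may be partly technical.

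Voltage-gated channels open when the membrane potential changes and give the cardiac action potential its shape. In the heart, sodium channels carry the fast upstroke, calcium channels carry the inward current that triggers contraction, pacemaker (HCN) channels carry the diastolic current of the sinus node, and potassium channels set the resting potential and bring the membrane back to it. Each pore subunit assembles with auxiliary subunits that alter its trafficking and gating.

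Values are log2 RMA levels, and differences are knockout minus control. Probe sets differ in how strongly they bind, so a level is compared only with the same gene on other arrays. The targeted gene, Lrrfip2, was at 6.36 and 6.22 in the knockout arrays, against 7.33, 8.07 and 8.08 in control replicates 1, 2 and 3, so the values run with the labels, although where its probes lie relative to the deletion was not analysed here. Medians of the arrays lay between 5.07 and 5.11, and any 2 arrays correlated at 0.986 to 0.996 over all probe sets. All 10 cardiomyocyte markers, such as Tnnt2 and Actc1, were above the level filter described next, with mean levels of 11.16 and 10.98 in knockout replicates 1 and 2 and of 11.11 to 11.13 in the controls. Each knockout array stood apart in another cell type: 10 liver and gut endoderm markers averaged 8.25 on the second knockout array and 4.52 on the first, with controls at 4.52 to 4.59, while 5 of the 6 listed macrophage markers, those with a named probe set, averaged 5.97 on the first knockout array and 4.85 on the second, with controls at 4.85 to 4.95. Where leaving out 1 of these arrays moved a reported difference by much, the value without it is given.

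The level filter was the 40th percentile of the mean over the 5 arrays, at a log2 level of 4.44. Of the 132 channel genes, 71 (53.8%) lay above it and 61 below. The 71 include the 3 antisense transcripts, which are counted with the channel genes throughout. Just above it were Kcnd3os (4.51), Kcnmb4os1 (4.51) and Kcnt2 (4.52), and just below it Kcnb2 (4.44), Kcnk7 (4.44) and Kcnk5 (4.40). All 3 HCN genes on the list were above the filter, as were 21 of 36 pore subunits of voltage-gated potassium channels, 9 of 15 inward rectifiers, 5 of 10 calcium channel pore subunits, 5 of 8 calcium channel gamma subunits, 8 of 16 potassium channel auxiliary subunits and 7 of 14 2-pore potassium channels. Of the sodium channel pore subunits, 1 of 8 was above it, namely Scn7a. Genes below the filter were not tested.

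Most of the 71 genes had a small difference between the group means. Such a difference also arises where the knockout arrays lie on either side of the controls, as for Cacna1c and Hcn4 below. The median difference was -0.02, beside -0.02 over all 13967 genes tested, and 56 of the 71 (78.9%) differed by less than 0.25, beside 78.8% of all genes tested. None of the 71 passed a Benjamini-Hochberg adjusted p of 0.05 in limma, and neither did any other gene tested (0% of all genes). At an unadjusted p under 0.05 there were 3, of which 1 was higher in the knockout (Kcne3) and 2 were lower (Cacna1d and Kcnh2). That is 4.23% of the members, beside 8.78% of all genes tested (3.29% higher and 5.49% lower). No overlap between the groups was found for 13 members, 5 of them higher and 8 lower, or 18.3% beside 21.3% of all genes (8.18% higher and 13.1% lower). Both shares are below those of all genes. The 5 higher without overlap include Kcnt2, whose knockout replicate 2 (4.292) was barely above its highest control (4.290, control replicate 1). The counts grew when 1 knockout array was left out, as they did over all genes: 18 members (25%, beside 27.4% of all genes) were under the unadjusted threshold without knockout replicate 2, and 16 (22.5%, beside 17% of all genes) without knockout replicate 1. Without the level filter, 4 of the 132 were, beside 6.12% of all genes. A difference of at least 1.5-fold was found in 4 members (5.63%), Kcne3, Kcnj2, Kcnt2 and Cacna1d, beside 3.34% of all genes. Among them, Kcnt2 passed the level filter only through its high value on knockout replicate 1. The difference of Kcnj2 also came mainly from that array, and was 0.13 without it. Negative differences, of any size, were seen in 41 members, or 57.7% beside 54.4% of all genes.

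**Figure D1:**
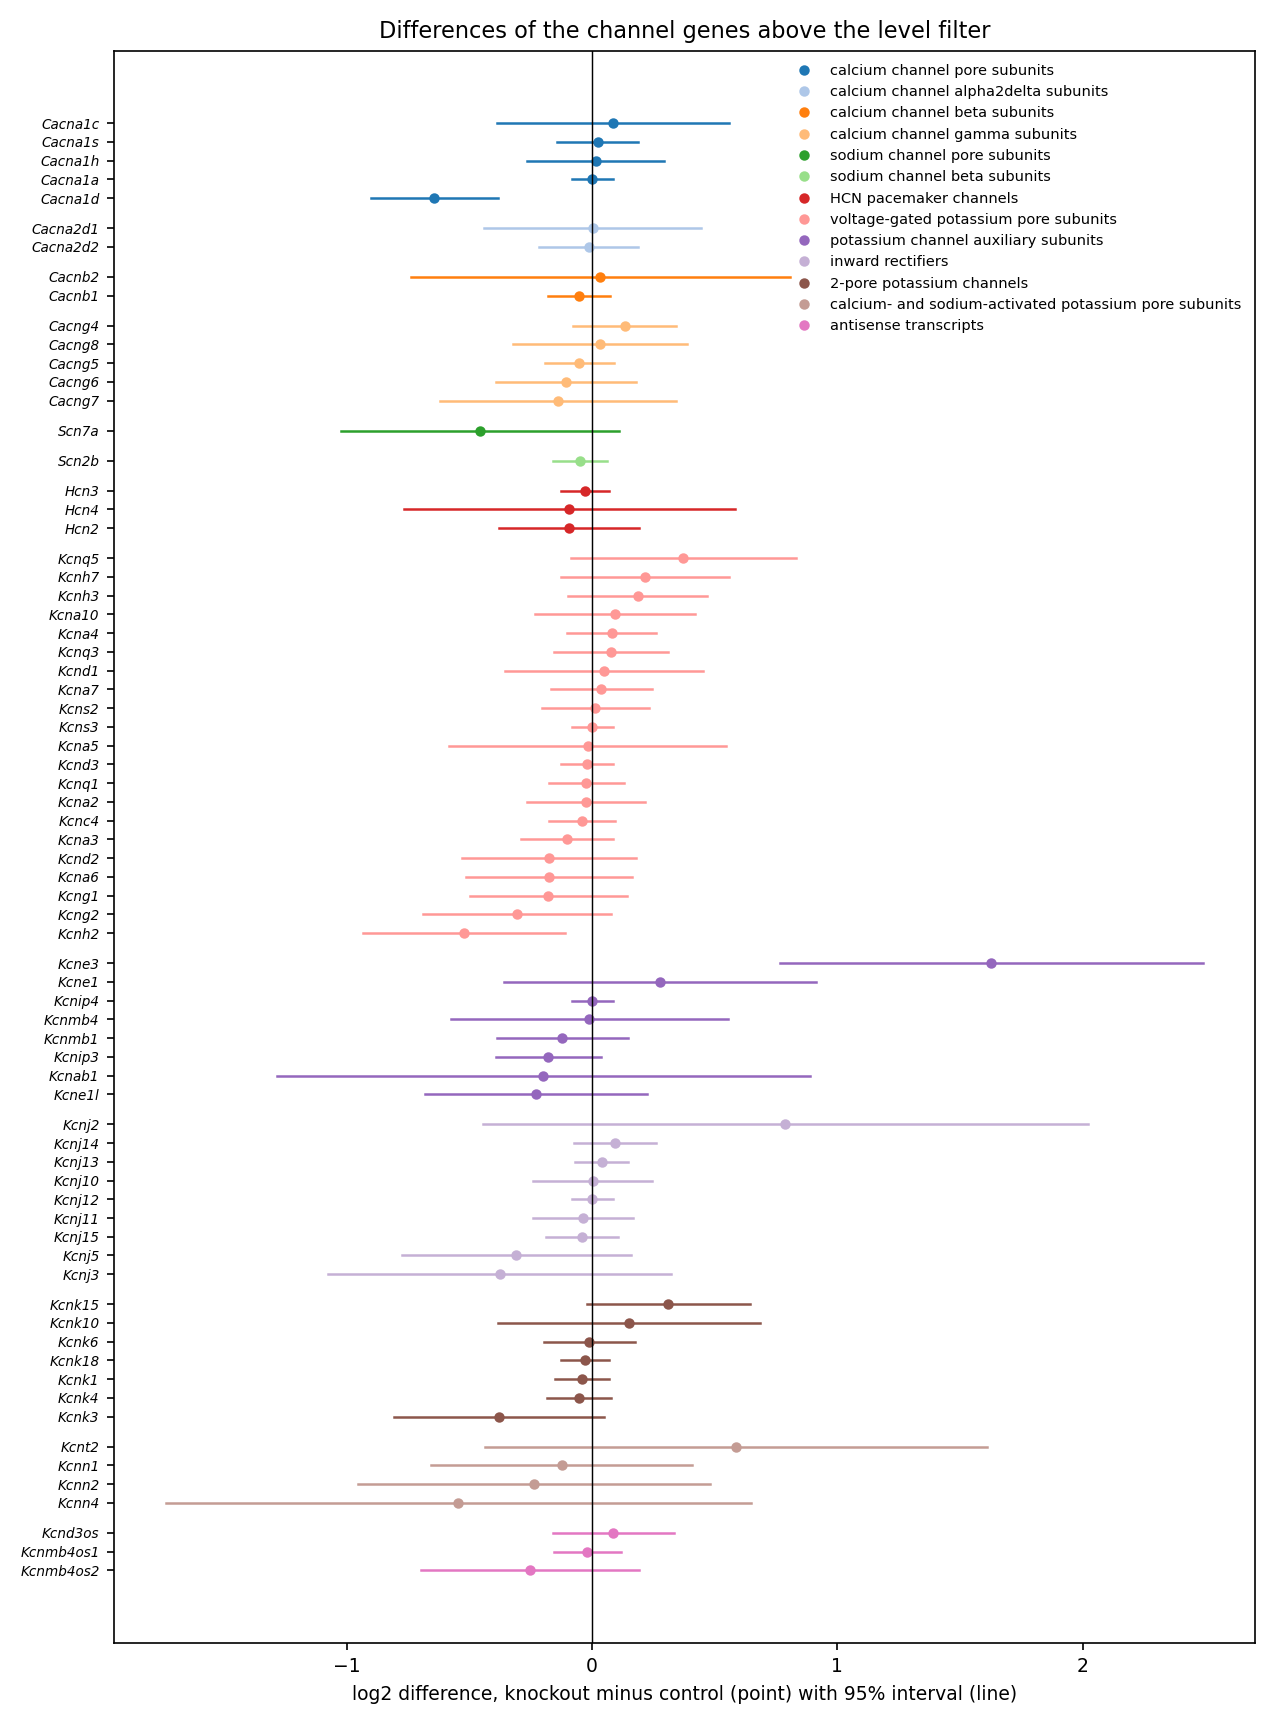
Log2 difference (knockout minus control; point) with its 95% interval from limma (line) for the 71 channel genes above the level filter, grouped by family. Most points lie near 0, and the intervals of Kcne3, Cacna1d and Kcnh2 do not reach it.

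Kcne3 had the largest difference among the 71 members. It encodes a single-pass auxiliary subunit that, with the potassium channel subunit Kcnq1, forms channels that stay open over a wide range of voltages. Kcne3 (Entrez 57442, chromosome 7) was at 6.59 and 5.65 in knockout replicates 1 and 2, against 4.57, 4.55 and 4.36 in control replicates 1, 2 and 3. Both knockout values lay above all control values, with knockout replicate 1 the higher by 0.94. Its mean was 6.12 ± 0.67 (SD, n = 2) for the knockout and 4.49 ± 0.12 (SD, n = 3) for the controls, a difference of 1.63 ± 0.31 (SE) or 3.09-fold, with an unadjusted p of 0.00625 and an adjusted p of 0.364 in limma. Knockout replicate 1, the array with more macrophage transcripts, was the higher of the pair. Without it the difference was 1.16, which rests on knockout replicate 2 alone, the array with endoderm transcripts. Without knockout replicate 2 it was 2.10. Each of these fits has a lone knockout array, whose spread is taken to be that of the controls. Of 6 endothelial markers, 3 were above all controls on both knockout arrays and 0 were below them. The part of macrophage, endoderm or endothelial cells in the Kcne3 values was not tested. The pore-forming partner of Kcne3, Kcnq1, was at 5.57 in both knockout arrays, against 5.68, 5.57 and 5.54 in the controls.

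Cacna1d and Kcnh2, a calcium channel that opens at low voltages in the sinus node and the pore of the rapid delayed rectifier (hERG), both had lower levels in the knockout. Cacna1d (Entrez 12289, chromosome 14) was at 6.84 and 6.97 in the knockout arrays, against 7.54, 7.44 and 7.67 in control replicates 1, 2 and 3. The knockout arrays were close to each other and below all controls. Its mean was 6.90 ± 0.10 (SD, n = 2) for the knockout and 7.55 ± 0.12 (SD, n = 3) for the controls, a difference of -0.64 ± 0.09 (SE) or 1.56-fold lower, with an unadjusted p of 0.00224 and an adjusted p of 0.354 in limma. Its difference stayed between -0.71 and -0.58 when any 1 array was left out. Kcnh2 (Entrez 16511, chromosome 5) was at 7.12 and 7.50 in the knockout arrays, against 7.81, 7.71 and 7.97 in the controls. The groups did not overlap, and knockout replicate 1 was the lower of its pair. The difference was -0.52 ± 0.15 (SE), with an unadjusted p of 0.0241 and an adjusted p of 0.494 in limma. It was -0.33 without knockout replicate 1 and -0.71 without knockout replicate 2. The cardiomyocyte markers averaged 11.16 in knockout replicate 1, where both genes were lowest, and 10.98 in knockout replicate 2, with the controls between them. Of the 10 markers, 3 were below all controls on both knockout arrays, namely Nkx2-5 (7.14 and 7.52, against 7.76, 7.80 and 7.56), Myh6 and Tnni1, and 1 was above them. Their part in the 2 differences was not tested. In whole hearts, fewer cells of a type and less RNA per cell cannot be told apart.

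**Figure D2:**
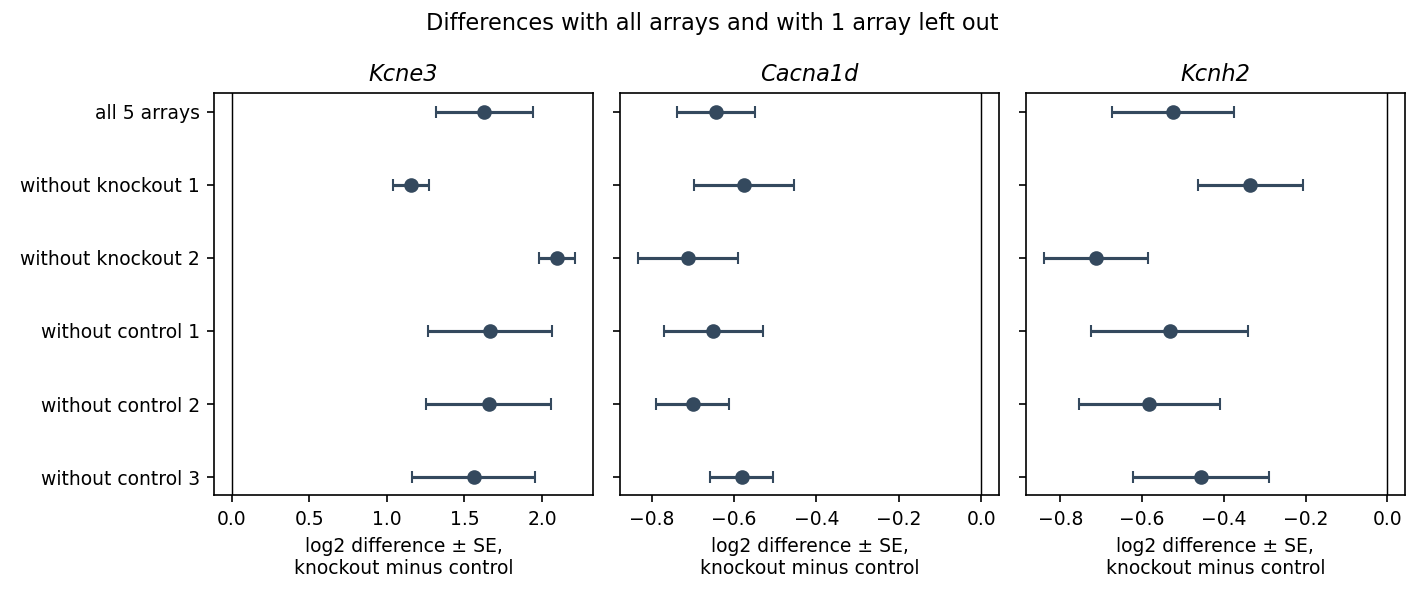
Log2 difference (knockout minus control) ± SE for Kcne3, Cacna1d and Kcnh2 with all 5 arrays and with each array left out, on a horizontal axis of its own for each gene. The sign is the same in all 6 fits of each gene, and Kcne3 ranges from 1.16 to 2.10.

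Since these were the members with the smallest p and the title of the series concerns hypoxia, the bases before their transcription starts are shown with the core of the hypoxia response element, bound by the hypoxia-inducible factors. The sequences are RefSeq's for assembly GRCm38.p6, 250 bases before an annotated start, read 5′ to 3′ on the gene's strand, with ACGTG or GCGTG on either strand in capitals. For Kcne3 and Cacna1d, which each have another annotated start without a match, the window that holds a match is shown. They lie at chr7:100176420-100176669 (plus strand, Kcne3), chr14:30353487-30353736 (minus strand, Cacna1d) and chr5:24329592-24329841 (minus strand, Kcnh2).
Kcne3: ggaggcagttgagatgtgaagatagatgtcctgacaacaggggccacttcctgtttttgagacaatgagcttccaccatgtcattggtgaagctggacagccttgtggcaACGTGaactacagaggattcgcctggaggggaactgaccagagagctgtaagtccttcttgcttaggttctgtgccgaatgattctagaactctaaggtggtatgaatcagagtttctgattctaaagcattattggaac
Cacna1d: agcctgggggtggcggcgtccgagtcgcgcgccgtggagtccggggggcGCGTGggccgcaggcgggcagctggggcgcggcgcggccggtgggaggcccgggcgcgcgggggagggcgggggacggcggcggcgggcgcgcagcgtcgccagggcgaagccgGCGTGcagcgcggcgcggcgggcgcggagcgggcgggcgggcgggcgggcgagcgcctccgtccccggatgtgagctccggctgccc
Kcnh2: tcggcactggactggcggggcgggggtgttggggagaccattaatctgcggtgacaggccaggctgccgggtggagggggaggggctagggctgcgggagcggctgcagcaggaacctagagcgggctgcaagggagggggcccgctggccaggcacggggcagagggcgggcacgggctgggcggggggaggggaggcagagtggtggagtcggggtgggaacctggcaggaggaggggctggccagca
The Kcne3 window holds 1 match, whose first base lies 140 bases before the start. The Cacna1d window holds 2, at 201 and 87 bases before the start. The Kcnh2 window holds 0. Of the 132 members, 101 have a window in the table, and 46.5% of them hold a match in at least 1 window, beside 48% of 17466 named genes with a window. Counted by window, 38.2% of the members' windows hold a match, beside 44.9% of the windows of named genes, so a match is common. The gene with a higher level and a gene with a lower level both hold one.

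Apart from Cacna1d, none of the 14 calcium channel genes above the filter had an unadjusted p under 0.05 in limma, and in none did the groups fail to overlap. Cacna1c, the main L-type pore subunit of heart muscle, was at 8.76 and 8.26 in the knockout arrays, against 8.47, 8.47 and 8.35 in the controls. The knockout values lay on either side of all controls, and the difference was 0.08 with a 95% interval of -0.39 to 0.56. Whether Cacna1c and Cacna1d differ from each other in this was not tested. The T-type subunit Cacna1h was at 7.39 and 7.09 against 7.23, 7.20 and 7.23, with an interval of -0.26 to 0.30. Cacnb2, the beta subunit that brings the pore to the membrane, was at 8.99 and 8.16 in the knockout arrays, against 8.41, 8.54 and 8.66 in the controls, again on both sides. The alpha2delta gene Cacna2d1 was at 6.63 and 6.15 against 6.42, 6.41 and 6.33, and Cacna2d2 was at 8.73 and 8.65 against 8.80, 8.61 and 8.70. For Cacna1c, Cacna1h, Cacnb2 and Cacna2d1, knockout replicate 1 was above and knockout replicate 2 below the controls. The 5 gamma subunit genes differed by -0.14 to 0.13. Cacna1g, the other T-type gene of the embryonic heart, was below the filter at 4.05 on both knockout arrays, against 4.05 to 4.08 in the controls.

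The pacemaker channel genes showed no difference beyond the spread between arrays. Hcn4, the main pacemaker channel of the embryonic heart and sinus node, was at 6.13 and 6.84 in knockout replicates 1 and 2, against 6.66, 6.65 and 6.43 in the controls. The knockout arrays enclosed all controls, and the difference of -0.09 had a 95% interval of -0.77 to 0.58. The 4 sinus node and venous pole markers also had their highest mean on knockout replicate 2. They averaged 5.91 in knockout replicate 1 and 6.88 in replicate 2, with controls at 5.72 to 6.36. Shox2 (4.30 and 6.66 against 3.80 to 4.88), Tbx3 and Tbx18 were each highest on replicate 2. Isl1 was not, at 6.04 there against 6.31 in control replicate 1. The part of these markers in the Hcn4 values was not tested. Hcn2 was at 4.54 and 4.67 against 4.62, 4.62 and 4.86, and Hcn3 at 4.51 and 4.57 against 4.57 in each control.

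Of the sodium channel genes, only Scn7a and Scn2b were above the filter. Scn7a, which encodes a channel that senses sodium concentration and not voltage, was at 4.87 and 4.25 in knockout replicates 1 and 2, against 5.04, 5.05 and 4.94 in the controls. Both knockout arrays were lower, knockout replicate 2 the more. The difference was -0.46 ± 0.21 (SE) with an unadjusted p of 0.0894, and -0.15 without knockout replicate 2, the array with endoderm transcripts. The beta subunit gene Scn2b differed by -0.05, with 4.56 and 4.63 against 4.67, 4.63 and 4.63. Scn10a and Scn11a lie 53 and 54 protein-coding genes from Lrrfip2 on chromosome 9, the nearest channel genes to it on the list. Scn10a was below the filter at 3.75 and 3.60 in the knockout arrays, against 3.75, 3.90 and 4.24 in the controls, and Scn11a at 3.19 and 3.04 against 3.19 in each control.

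Pore subunits of the voltage-gated potassium channels had a median difference of -0.02 over the 21 above the filter, with Kcnh2 the lowest. At the other end was Kcnq5, a subunit of slowly activating M-type channels, at 7.32 and 6.93 in the knockout arrays, against 6.86, 6.83 and 6.57 in the controls. The groups did not overlap, but knockout replicate 2 exceeded the highest control by little, and the unadjusted p was 0.0882. The difference of 0.37 became 0.18 without knockout replicate 1. Kcnh7, a relative of Kcnh2 (7.15 and 6.81 against 6.67, 6.81 and 6.81) had its highest value on knockout replicate 1, without which its difference of 0.22 was 0.05. Kcnh3 was at 4.71 and 4.62 against 4.57, 4.57 and 4.31. Kcng2, a silent subunit that modifies other potassium channels, was at 5.60 and 5.18 in the knockout arrays, against 5.69, 5.72 and 5.68 in the controls. The controls lay close together, and the difference of -0.31 became -0.10 without knockout replicate 2, the array with endoderm transcripts. The transient outward channel genes Kcnd2 (5.16 and 5.19 against 5.41, 5.51 and 5.13) and Kcnd3 (5.67 in both knockout arrays, against 5.67 to 5.73) overlapped with controls, as did the ultrarapid rectifier gene Kcna5 (5.05 and 5.04 against 5.38, 5.05 and 4.76). The auxiliary gene Kcne1, partner of Kcnq1 in the slow delayed rectifier, was at 7.24 and 6.80 against 6.95, 6.86 and 6.43, a difference of 0.28 with a 95% interval of -0.36 to 0.91. It was 0.06 without knockout replicate 1 and 0.12 without control replicate 3. The calcium-binding subunit Kcnip3 was at 5.48 and 5.29 against 5.61, 5.59 and 5.50, without overlap, and its difference of -0.18 became -0.08 without knockout replicate 2.

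The subunits of the acetylcholine-activated potassium channel, Kcnj3 and Kcnj5, had lower mean levels in the knockout without passing the unadjusted threshold. Kcnj3 was at 5.97 and 5.93 in the knockout arrays, against 6.78, 6.14 and 6.06 in control replicates 1, 2 and 3. The groups did not overlap, and control replicate 1 stood well above the others. It was also the only array with Y-linked transcripts (mean level 7.02 over 3 genes, against 2.72 to 2.99 on the other 4 arrays). Xist, the RNA of X inactivation, was at 4.41 there, against 10.33 to 10.80 on the other 4. In every comparison here that includes control replicate 1, the controls were thus mixed in these transcripts and the knockout arrays were not. The part of sex in the Kcnj3 and other differences was not tested. The Kcnj3 difference was -0.38 ± 0.25 (SE), and -0.15 without control replicate 1. Kcnj5 was at 7.17 and 6.71 against 7.38, 7.19 and 7.17, with knockout replicate 2 the lowest. Its difference was -0.31, and -0.08 without that array. Kcnk3, an acid-sensitive 2-pore channel of resting cells, was at 6.16 and 6.56 in the knockout arrays, against 6.71, 6.63 and 6.88 in the controls, a difference of -0.38 ± 0.15 (SE) with an unadjusted p of 0.069. It was -0.18 without knockout replicate 1 and -0.58 without knockout replicate 2. Kcnk15, from the same subfamily, was higher in both knockout arrays, at 5.61 and 5.49 against 5.26, 5.06 and 5.40, with a difference of 0.31 and an unadjusted p of 0.0605. Kcnj11, the pore of the ATP-sensitive channel, was at 5.63 in both knockout arrays, against 5.60, 5.62 and 5.79.

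**Figure D3:**
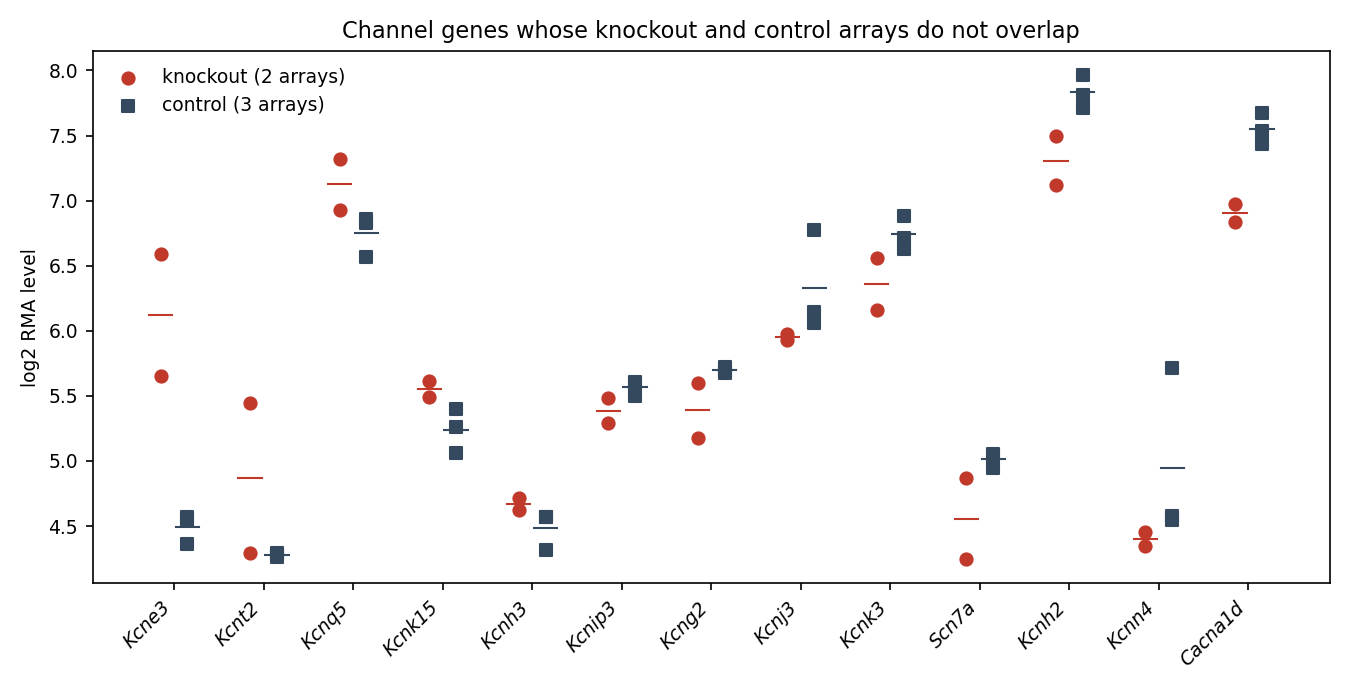
Log2 RMA levels of the 13 channel genes whose 2 knockout arrays (red circles) lie all above or all below the 3 control arrays (dark squares), ordered by difference from highest to lowest, with a line at each group mean. In Kcnt2, Scn7a and Kcng2 the gap comes mainly from 1 knockout array, and in Kcnn4 and Kcnj3 the spread is in the controls.

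In 3 members, 1 array lay more than 1 log2 unit beyond the other 4. Kcnj2, the inward rectifier that holds the resting potential of heart muscle, was at 6.42 and 5.11 in knockout replicates 1 and 2, against 5.11, 5.10 and 4.73 in the controls. Knockout replicate 2 was at the level of the controls. The difference was 0.79 ± 0.45 (SE), and 0.13 without knockout replicate 1. Kcnt2, a sodium-activated potassium channel, showed the same shape, at 5.44 and 4.29 against 4.29, 4.29 and 4.27. Without knockout replicate 2 its difference was 1.16, which rests on knockout replicate 1 alone, the array through which it passed the filter. Without knockout replicate 1 it was below the filter. Knockout replicate 1 was the array with more macrophage transcripts. Tyrobp (7.65 against 4.85 to 5.09 on the other 4), Ptprc, Csf1r and Fcer1g were highest on it. Cd68 was not, at 6.45 there against 6.62 in control replicate 3. Knockout replicate 1 also had the highest mean of 6 endothelial markers, at 8.76 against 8.15 to 8.45 on the other 4. The part of these markers in the levels of Kcnj2 and Kcnt2 was not tested.

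Kcnn4 stood apart within the controls. It encodes the calcium-activated potassium channel of red blood cells, and was at 4.45 and 4.35 in the knockout arrays, against 4.57, 4.54 and 5.72 in control replicates 1, 2 and 3. The difference of -0.54 ± 0.43 (SE) became -0.16 without control replicate 3. That array also had the highest mean over 6 erythroid markers, at 9.72, after 8.78 and 8.92 for the knockout arrays, with 9.17 and 8.66 for the other two controls. Alas2 among them was at 8.73 there, against 6.15 to 7.27 on the other 4 arrays. The part of erythroid cells in the Kcnn4 value was not tested.

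**Figure D4:**
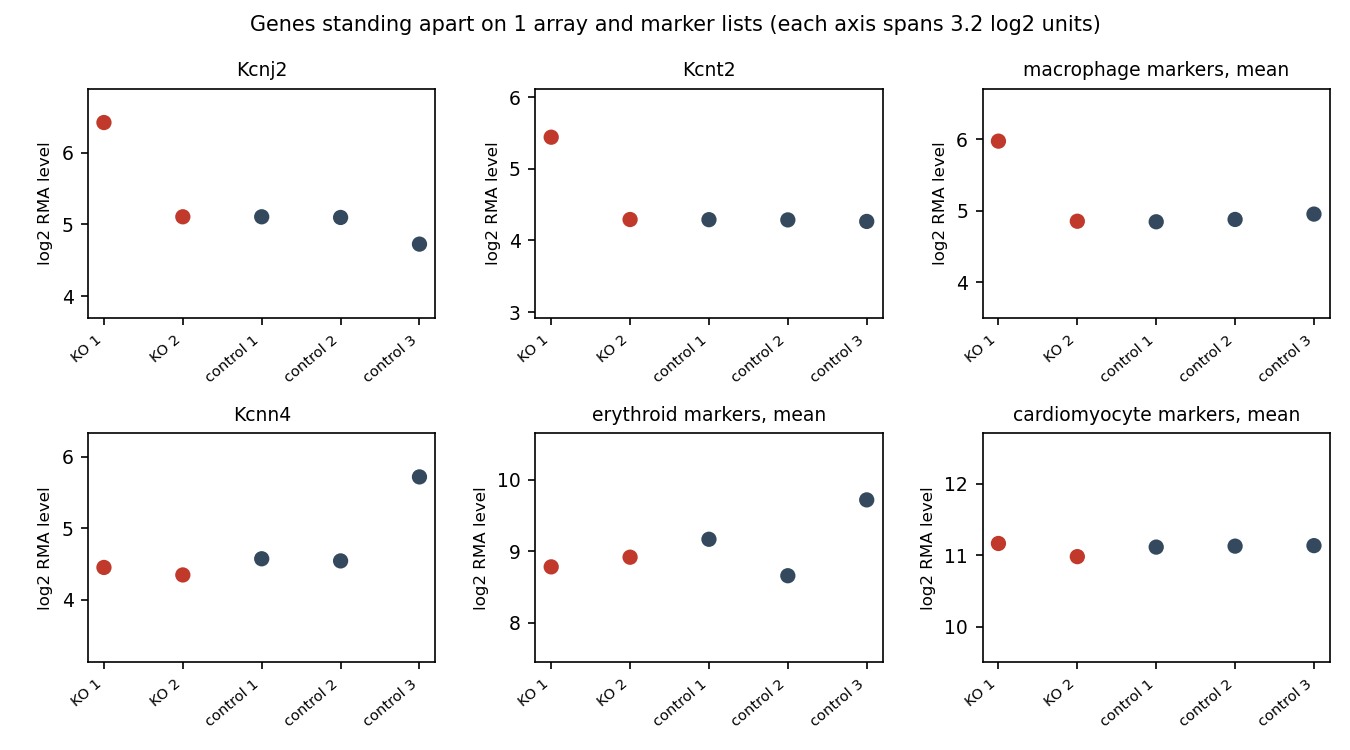
Log2 RMA levels by array (knockout red, control dark) of Kcnj2, Kcnt2 and Kcnn4 and the mean levels of the macrophage, erythroid and cardiomyocyte markers. Kcnj2, Kcnt2 and the macrophage markers are high in knockout replicate 1, and Kcnn4 and the erythroid markers in control replicate 3.

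Genes outside the list that bind or regulate these channels were fitted in the same model. Of 42 with a named probe set, 31 were above the filter, with a median difference of -0.01, and 0 passed the adjusted threshold in limma. At an unadjusted p under 0.05, 1 was higher (Fgf11) and 2 were lower (Cav3 and Popdc3), or 9.68% beside 8.78% of all genes. The groups did not overlap for 8 (25.8%, beside 21.3% of all genes). Both shares are near those of all genes. Fgf11, an intracellular growth factor homolog of a family that binds sodium channels, was at 5.97 and 5.47 in the knockout arrays, against 4.38, 4.16 and 3.69 in the controls. All its control values lay below the filter at 4.44, so it was tested, and counted above, only because its knockout values were high. Its difference was 1.65 ± 0.28 (SE) with an adjusted p of 0.355 in limma. Cav3, the muscle caveolin, a scaffold protein of membrane pits, was at 5.64 and 5.92 against 7.10, 6.97 and 6.59, a difference of -1.11 ± 0.19 (SE) with an adjusted p of 0.355. In both genes the groups did not overlap. Popdc3, of a family that binds cyclic AMP and interacts with 2-pore potassium channels, was at 6.54 and 6.40 against 6.73, 6.82 and 6.70. Abcc9, the regulatory subunit of ATP-sensitive channels in heart and vessels, was at 8.54 and 7.91 against 8.83, 8.86 and 8.63, with an unadjusted p of 0.067. Its difference of -0.55 became -0.23 without knockout replicate 2.

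Other genes of the cardiac and brightest sets overlapped between the groups. Kcnmb1, a beta subunit of the large-conductance calcium-activated channel of smooth muscle, was at 7.56 and 7.48 in the knockout arrays, against 7.56, 7.56 and 7.80 in the controls. The auxiliary gene Kcne1l was at 6.37 and 6.69 in the knockout arrays, against 6.96, 6.73 and 6.58 in the controls. Its difference was -0.23 with a 95% interval of -0.68 to 0.23, and -0.07 without knockout replicate 1. Kcne1l lies on chromosome X, and its highest value was on control replicate 1, the only array with Y-linked transcripts. The part of sex in its values was not tested. The 2-pore channel gene Kcnk6 was at 6.20 and 6.29 in the knockout arrays, against 6.29, 6.32 and 6.16 in the controls. Of the small-conductance calcium-activated channels, Kcnn2 was at 5.37 and 4.62 in the knockout arrays, against 5.39, 5.19 and 5.12 in the controls. Knockout replicate 2 was the lowest of the 5, and the difference of -0.24 (95% interval -0.95 to 0.48) became 0.14 without it. Below the filter, and so untested, were Kcnj8, the vascular pore of the ATP-sensitive channel, at 3.83 and 3.99 in the knockout arrays, against 3.83, 3.57 and 4.21 in the controls, and the large-conductance pore gene Kcnma1, at 3.12 in both knockout arrays, against 3.19, 3.02 and 3.24. The sodium channel beta subunit gene Scn4b was at 4.16 and 4.32 in the knockout arrays, against 4.27, 4.07 and 4.35 in the controls, also below the filter.

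Equal values on different arrays were common and limit how finely the levels can be read. Of the 71 members above the filter, 44 (62%) had the same value on at least 2 arrays, beside 54.8% of all genes tested. In Cacna1a, Kcnip4, Kcnj12 and Kcns3 all 5 arrays had 1 value, so these genes could show no difference. Below the filter, where 61 members lay, the same was true of Cacna1i, Cacnb4, Kcna1, Kcnh8 and Kcnj16.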

How the data were processed

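RNA of embryonic hearts was labelled with the GeneChip WT Plus kit, per the labels' protocols. The authors deposited 1 table of log2 values, made with Affymetrix Expression Console and RMA per the submitters' processing notes, with versions and settings not given in the sources used here. RMA brings the arrays to similar distributions, so a shift of most genes together would be largely removed. Of 24479 probe sets, 23281 have 1 symbol in the platform annotation and 1198 none. The brightest set of a gene was kept, leaving 23279 genes. All 132 members matched the RefSeq table (GRCm38.p6) by Entrez number, which gave chromosomes and gene order. Scanner values were not used, so background could not be judged, and precision is limited by there being 5 arrays.

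Knockout was compared with control by limma 3.58.1 (R 4.3.3; lmFit, eBayes, two-sided) over the 13967 genes at or above the 40th percentile of mean level, with Benjamini-Hochberg adjustment over all of them and a threshold of 0.05. With 10 splits of the arrays, no permutation p can fall below 0.1. The steps were tested on simulated data. The members, lists and tests were chosen with earlier results of these data known. Named genes were members with an unadjusted p under 0.05, a fixed cardiac list, the brightest of each family, the largest differences without overlap, those next to the filter, those with an array more than 1 log2 unit from the rest, and partners with an unadjusted p under 0.05. Scn11a, Kcng2, Kcnh3, Kcnip3, Kcnj1, Abcc9 and most genes with 1 value on all arrays fall outside this rule and were chosen after their values were seen. Alternatives concerned the filter, the variance prior, array weights, normalization, probe sets and leaving out each array.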

Additional observations from a re-analysis of the deposited data

How the results depend on the processing

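The absence of members past the adjusted threshold held in every setting with all 5 arrays. With 1 control array left out the count was also 0. Without knockout replicate 2, Kcne3 and Kcnt2 passed, in a fit where the spread of the lone knockout array is taken from the controls. That lone array is also the one through which Kcnt2 passed the level filter, so its result there adds no support. Without a filter, 2 members were higher at an unadjusted p under 0.05, the added one being Kcnj1; from the 60th percentile, 0 were higher, as Kcne3 lay below it. With 1 array left out, 1 to 11 were higher and 1 to 12 lower, and the cause was not tested. The 11 higher (15.3%, beside 12.7% of all genes) came without knockout replicate 2 and the 12 lower (16.9%, beside 9.65%) without knockout replicate 1. The groups did not overlap for 5 members from the 60th percentile (23.8%, beside 25.6% of all genes), 23 after quantile normalization again (32.4%, beside 31.4%), and 15 (20.8%, beside 27.5%) to 38 (52.8%, beside 60.5%) with 1 array left out, where fewer arrays make overlap rarer. The median was -0.012 from the 60th percentile, -0.034 after quantile normalization again and -0.0015 with each array centred on its median, and it was -0.029 to -0.014 with 1 array left out. The filter left 40 members at the 50th percentile and 21 at the 60th, and 71 to 73 with 1 array left out. Cacna2d1 changed sign with array weights (-0.018) and ranged from -0.24 to 0.24 with 1 array left out. The ranges of the others that changed sign were -0.17 to 0.34 for Cacna1c, -0.13 to 0.16 for Cacna1h, -0.38 to 0.45 for Cacnb2, -0.45 to 0.26 for Hcn4, -0.61 to 0.14 for Kcnn2 and -0.052 to 0.017 for Kcnq1. Kcnt2 and Fgf11 fell below the filter without knockout replicate 1. No paired analysis was possible because the sample numbers in the labels are not shared between the groups.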
